A study of Mus musculus with 8 samples.

Results

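The ubiquitin-specific proteases (USPs) were examined in 4 lines of mouse pancreatic ductal adenocarcinoma (PDAC) cells, each line both with WT-USP21 and with ED-USP21. The members were the gene rows named Usp and a number, with or without a letter, other than Usp9y. Of 49 such rows, 47 held reads and were kept, out of 39179 genes, and 2 (Usp13 and Usp26) held none in any library. All 8 libraries came from lines of the iKPC mouse model and share the labelled genotype elements ROSA_rtTA and p48-Cre. ROSA_rtTA is a doxycycline-dependent activator at the Rosa locus, and p48-Cre, driven by the regulatory sequence of a pancreatic transcription factor, directs recombination to the pancreas. Lines 1 and 2 carry the strain label FVB/C57Bl6 and lines 3 and 4 the label C57BL/6. Each line was sequenced once with each construct, so each group held 4 libraries from 4 lines and each line 2 libraries. The labels do not spell out ED, which in work on USP21 commonly stands for enzyme-dead. Neither the species of the introduced cDNA, the presence of doxycycline, nor whether a line is a single clone is given in the sources used here, and cells without a construct were not analysed here.

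USPs are the largest family of deubiquitinases, enzymes that cut ubiquitin from proteins with a catalytic cysteine. By removing ubiquitin they can spare a protein from the proteasome, switch off a signal carried by ubiquitin, or take ubiquitin off histones. Most are expressed in most tissues and act with fixed partner proteins, and a few are largely limited to the germ line or induced by interferon. USP21 deubiquitinates histone H2A and several signalling proteins, and is the member that was introduced here.

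Reads assigned to genes numbered 72828184 to 107551210 per library. Levels are given as CPM, the reads of a gene scaled to the library total, after adjustment by edgeR's trimmed mean of M-values (TMM). The summed level of 7 ductal epithelial markers lay between 7672 and 13316 CPM, made up mostly of keratins, while Epcam stood at 3.40 to 5.35 CPM in line 1 and at 0.065 to 0.314 CPM in lines 2 to 4. Summed markers of other cell types were low in all libraries: at most 11.3 CPM for 6 acinar markers (Amy2a5 and Ptf1a without reads), 15.9 CPM for 6 leukocyte markers (Emr1 without reads), 2.30 CPM for 4 endothelial markers (Emcn without reads) and 18.1 CPM for 6 fibroblast markers (Dcn and Lum without reads). Line 1 stood apart from the other 3 lines across the transcriptome, and its WT-USP21 library also stood apart in 12 DNA replication and mitosis genes, which summed to 2476 CPM there and to between 4469 and 4708 CPM in the other 7 libraries. Each result that rests on line 1 is therefore given with the values of the other lines beside it. Because the libraries are bulk RNA, fewer cells with a transcript and less transcript per cell cannot be told apart.

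The 47 members covered a wide range of levels. A mean of at least 100 CPM was reached by 14 members and at least 50 CPM by 30, while 6 members (Usp2, Usp18, Usp29, Usp44, Usp50 and Usp51) stayed under 1 CPM. To compare genes, CPM were divided by the length of the longest annotated transcript. Usp21 was highest on this scale, at 543 ± 384 CPM per kb (SD over the 8 libraries), a level in which any reads from the introduced transcript were not separated. Next came Usp7, which stabilises MDM2 and p53, at 52.2 ± 7.52 CPM per kb, and Usp5, which takes apart unanchored ubiquitin chains, at 49.6 ± 3.51 CPM per kb. The SDs of these 2 neighbours in the order exceed the gap between them, so their order was not resolved. Usp22, the histone H2B deubiquitinase of the SAGA coactivator complex, followed at 42.5 ± 6.86 CPM per kb. Usp9x, a large enzyme of protein trafficking and survival signalling, stood at 39.8 ± 4.79 CPM per kb, Usp47, which acts on DNA polymerase beta in base excision repair, at 38.9 ± 2.10 CPM per kb, and the proteasome-bound Usp14 at 36.6 ± 3.6 CPM per kb. From Usp22 to Usp14, each gap to the next member was smaller than the larger of the 2 SDs, so the order of these 4 was not resolved either. Usp33, which acts in receptor recycling, had 33.8 CPM per kb, the ER-anchored Usp19 28.9 and Usp10, the partner of the stress granule protein G3bp1, 28.8. With mean instead of longest transcript length, 9 of these 10 remained among the highest 10. At the other end were Usp29, an imprinted gene, at 0.0021 CPM per kb, Usp51 at 0.017, Usp44 at 0.033, Usp2 at 0.12 and the interferon-inducible Usp18 at 0.13.

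**Figure D1:**
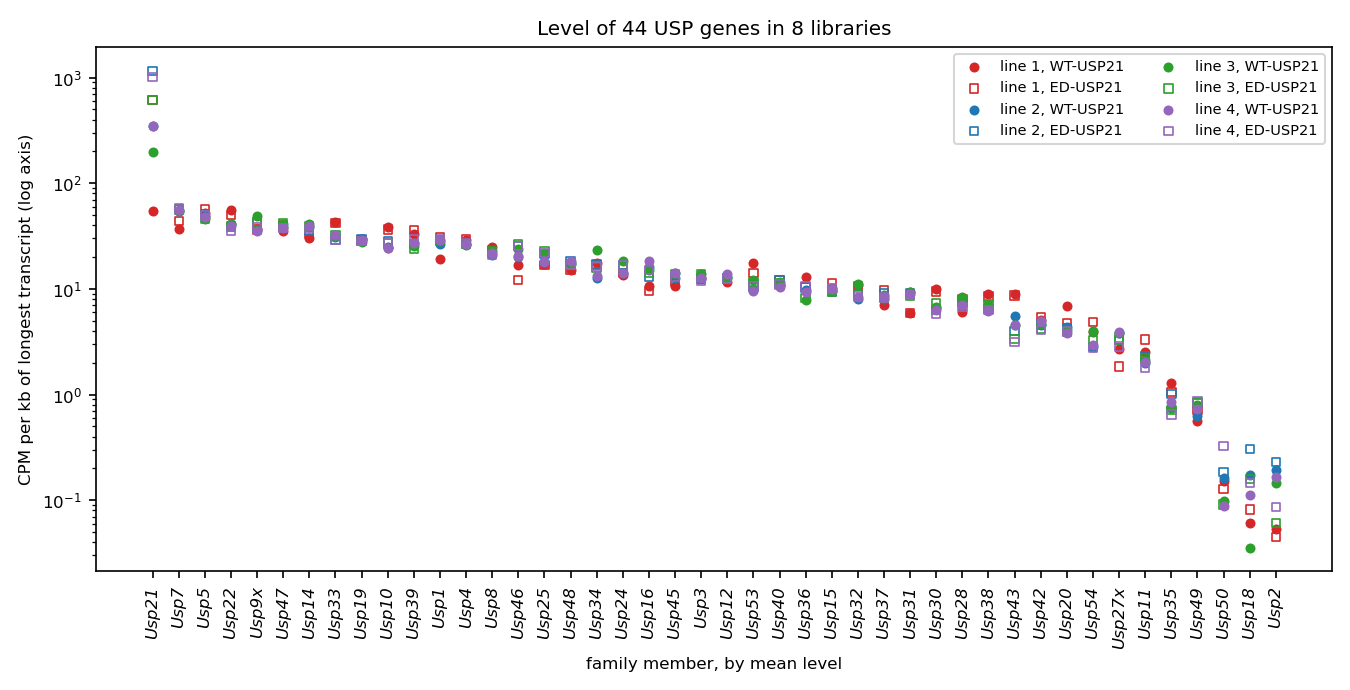
Level of the 44 members tested within lines, as CPM per kb of the longest annotated transcript on a log axis, with 1 point per library (filled circles WT-USP21, open squares ED-USP21, colour for the line). Usp21 spreads from 54.2 to 1158 CPM per kb, whereas the points of most other members lie close together.

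Apart from Usp21, most members varied little. Among the 39 other members with a mean of at least 5 CPM, the median coefficient of variation over the 8 libraries was 13.1%, against 14.2% for the 10234 genes of that level in all. Usp19 was the steadiest of the 39, with a coefficient of variation of 2.55%. Its levels in lines 1 to 4 were 142, 143, 133 and 138 CPM with WT-USP21 and 137, 142, 136 and 137 CPM with ED-USP21, so the constructs overlapped, while both line 3 values lay just under those of the other lines. Usp43 varied most, at 42.5%, and its values are given with the line comparison below.

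The introduced gene was examined first. Both groups received it, so its level alone cannot show whether a library is labelled correctly. Usp21 (ENSMUSG00000053483) stood at 147, 944, 539 and 941 CPM with WT-USP21 in lines 1 to 4, and at 1658, 3133, 1662 and 2721 CPM with ED-USP21. The highest WT-USP21 library thus lay below the lowest ED-USP21 library, and line 1 with WT-USP21 lay far below the rest of its group. Per kb, Usp21 ranked above the other members in 7 libraries, exceeding the next member 3.63- to 20.5-fold, and in line 1 with WT-USP21 it stood just under Usp22, at 0.968 of its level. Usp21 took 3.69% of all USP reads in that library, 11.6% to 20.4% in the other 3 with WT-USP21, and 29.8% to 44.4% with ED-USP21. On the log2 scale WT-USP21 libraries were on average -2.10 from their ED-USP21 partners (SD 0.94 over 4 lines), with p = 0.0286 in an exact 2-sided permutation test over 70 arrangements and p = 0.125 in an exact sign-flip test within lines, each the smallest that the design allows. In the edgeR quasi-likelihood test with lines as a block, Usp21 had a fitted log2 value of -2.07 (SE 0.35) and did not pass (Benjamini-Hochberg adjusted p = 0.205). Without line 1 the difference was -1.62 (SE 0.06) and passed (edgeR adjusted p = 0.000778). Reads from the construct and from the endogenous gene were not separated, and the divisor is the length of the mouse transcript, not of the construct.

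**Figure D2:**
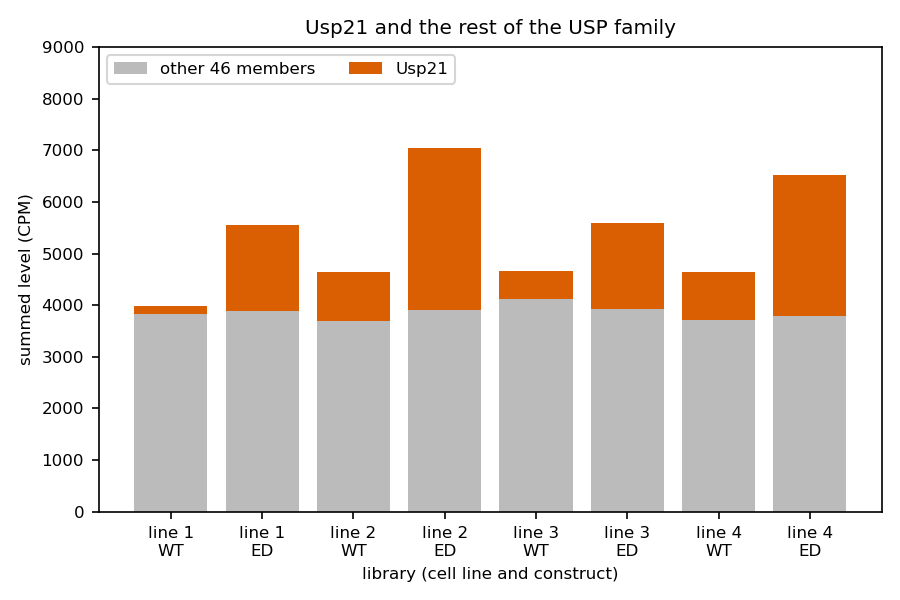
Summed level of the USP family in each library in CPM, with Usp21 in orange and the other 46 members in grey. The grey part stays between 3691 and 4123 CPM, while the orange part goes from 147 to 3133 CPM.

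The rest of the family held a nearly constant share of the transcriptome. Summed over the 46 other members, the level in lines 1 to 4 was 3831, 3691, 4123 and 3709 CPM with WT-USP21 and 3894, 3916, 3921 and 3797 CPM with ED-USP21. The constructs overlapped, with line 3 higher under WT-USP21 and the other 3 lines lower. The mean log2 difference was -0.018 (SD 0.066 over 4 lines; exact 2-sided permutation p = 0.714, exact sign-flip p = 0.625). Its sign is not settled, since it was 0.0087 with library totals as the scaling and 0.005 without line 2.

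Comparing the constructs within lines asks whether other USP transcripts differ with the form and amount of USP21. No member passed: edgeR called 0 of 44 tested members, against 4 of 16192 genes, a background of 0.0247%. At an unadjusted p under 0.05 there were 5 members, against 1341 genes (8.28%). DESeq2 with the same block called 0 members as well, against 2.51% of genes. Without the block edgeR called 0 members and 0 genes, with 1 member at an unadjusted p under 0.05 against 2.42% of genes. The median log2 difference of the 44 was -0.0012, beside -0.0044 over all genes tested. For the 40 members other than Usp21 with a mean of at least 1 CPM, the differences ran from -0.26 to 0.37 with a median size of 0.056. Their 95% intervals lay within 0.5 on the log2 scale for 36 and within 0.3 for 27, and the widest bound was 0.61.

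Several highly expressed enzymes had narrow intervals. Usp19 differed by 0.01 (95% interval -0.11 to 0.14), Usp4, which acts in TGF-beta and Wnt signalling, by -0.02 (-0.14 to 0.10), and Usp47 by -0.05 (-0.20 to 0.09). Usp14 differed by 0.04 (-0.11 to 0.19) and Usp5 by -0.06 (-0.19 to 0.07). Wider intervals belonged to Usp34, an enzyme of the axin and Wnt pathway, at -0.04 (-0.45 to 0.37), and to the mitochondrial Usp35 at 0.07 (-0.37 to 0.52). A p that misses the threshold does not show that these genes were alike under both constructs, but the intervals limit how far they differed.

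**Figure D3:**
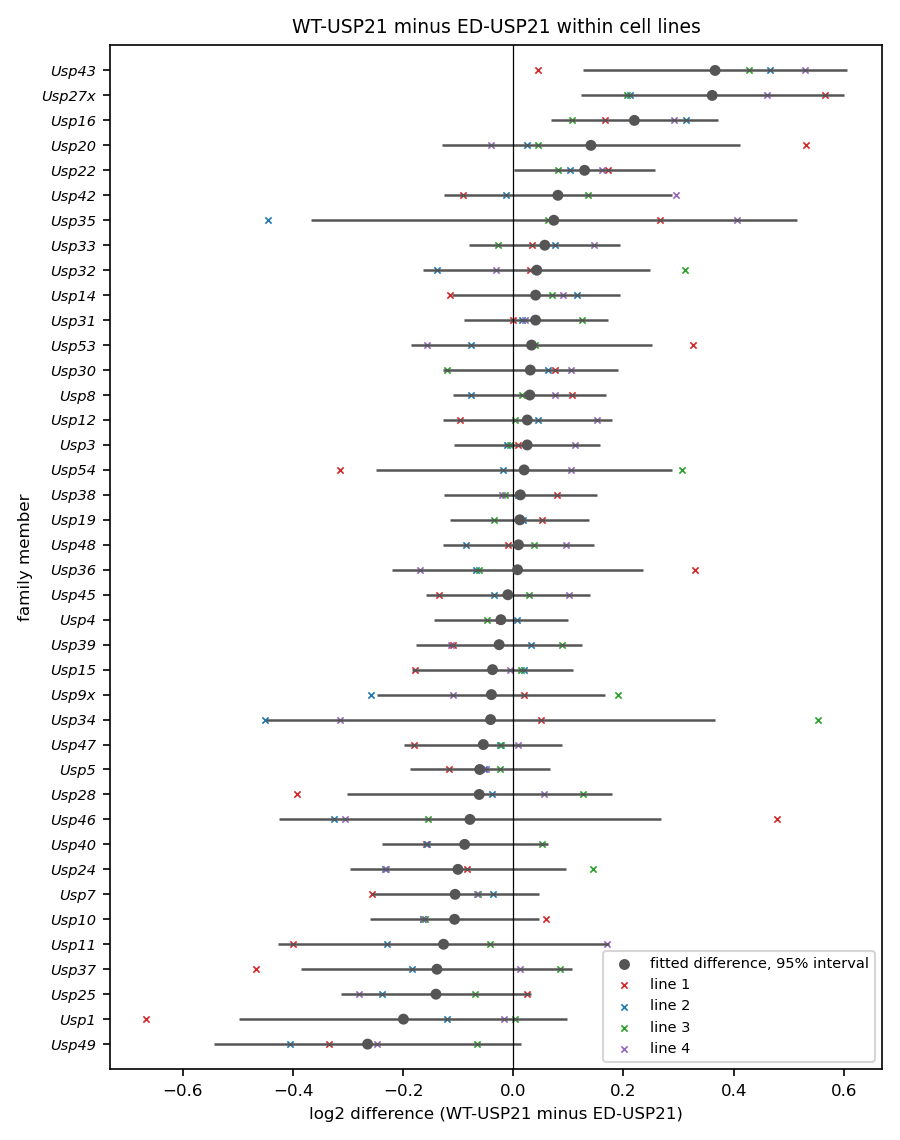
Log2 difference, WT-USP21 minus ED-USP21, for the 40 members of at least 1 CPM other than Usp21. Grey points and bars are the fitted difference and its 95% interval with lines as a block, and crosses are the 4 single lines. The intervals of Usp43, Usp27x, Usp16 and Usp22 lie above 0, and none of these passed the adjusted test.

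Higher with WT-USP21 in 4 of 4 lines were 4 members (9.02% of all genes were so), and lower in 4 of 4 were 5 (7.73% of all genes). The 4 were Usp16, Usp22, Usp27x and Usp43. Usp43 (ENSMUSG00000020905), a less studied member, stood at 39.8, 24.5, 20.1 and 20.2 CPM with WT-USP21 and at 38.5, 17.7, 15.0 and 14.0 CPM with ED-USP21. The gap was small in line 1 and larger in lines 2 to 4, while line 1 was high with either construct, so the groups overlapped. The fitted log2 difference was 0.37 (SE 0.10, edgeR adjusted p = 0.370), and without line 1 it was 0.48 (SE 0.06, edgeR adjusted p = 0.0169). Without line 1, 2 of 44 members passed, Usp43 higher and Usp21 lower with WT-USP21, against a background of 4.57% of genes, 2.51% higher and 2.06% lower.

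Usp27x and Usp22 are paralogs that share the activating partners Atxn7l3 and Eny2 and remove ubiquitin from histone H2B. Usp27x stood at 11.6, 16.3, 16.3 and 16.8 CPM with WT-USP21 and at 7.85, 14.1, 14.1 and 12.2 CPM with ED-USP21 (log2 0.36, SE 0.10, edgeR adjusted p = 0.378). Usp22 stood at 248, 183, 184 and 174 CPM with WT-USP21 and at 220, 170, 174 and 156 CPM with ED-USP21 (log2 0.13, SE 0.05, edgeR adjusted p = 0.599). The direction was the same in every line for both, but the distance between line 1 and the other lines exceeded that between constructs. Usp16, a histone H2A deubiquitinase like USP21, stood at 38.5, 57.8, 54.6 and 66.2 CPM with WT-USP21 and at 34.3, 46.5, 50.7 and 54.1 CPM with ED-USP21 (log2 0.22, SE 0.06, edgeR adjusted p = 0.406). Exons of Usp16 and Cct8 overlap on opposite strands, and no source used here says whether reads were counted by strand, so reads in the shared stretch cannot be told apart.

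Of the 5 lower in 4 of 4 lines, Usp21 is the introduced gene and Usp18 held too few reads for a firm value. Usp5 and Usp7 had small differences. Usp7 stood at 175, 261, 261 and 262 CPM with WT-USP21 and at 210, 267, 272 and 274 CPM with ED-USP21, a gap of -0.11 on the log2 scale (SE 0.06, edgeR adjusted p = 0.739) that came mostly from line 1. Usp49, another H2B deubiquitinase, stood at 4.63, 5.18, 6.61 and 5.97 CPM with WT-USP21 and at 5.85, 6.87, 6.92 and 7.09 CPM with ED-USP21 (log2 -0.26, SE 0.11, edgeR adjusted p = 0.621).

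More members passed between cell lines than between constructs. The edgeR F test over the 4 lines, with the construct as a covariate, called 13 of 45 tested members (28.9%), against 23.4% of the 17465 genes tested. Without line 1 it called 1, Usp21, against 0.442% of genes. Line 1 against the mean of lines 2 to 4 called 23 of 45 members (51.1%), 12 higher and 11 lower, where 39.1% of all genes were called, 21.6% higher and 17.5% lower. Usp44 is among the 13 and the 23 but passed the low-count filter only through line 1, where it is high, and without it the F test called 12 of 44 members (27.3%) and the line 1 contrast 22 of 44 (11 higher, 11 lower). The 11 lower include Usp21, the introduced gene. At a mean of at least 5 CPM the share was 21 of 40 members (52.5%), 11 higher and 10 lower, beside 45.6% of genes, 28.3% higher and 17.4% lower. Refitted on genes with a mean of at least 5 CPM, the F test over lines called 12 of 40 members, beside 30.1% of genes. All 13 members called over the lines in the main fit were also called for line 1. Of the 22, 12 (Usp7, Usp10, Usp16, Usp22, Usp27x, Usp30, Usp31, Usp33, Usp38, Usp39, Usp43 and Usp53) kept their call for line 1 when any other line or either line 1 library was left out, and 10 lost it in at least 1 of these 5 fits. With a line 1 library left out, the lone other one is assumed to vary like the libraries of lines 2 to 4. Neither the kept and lost calls nor the overlap of the 13 was counted over all genes. They therefore describe single members and are not read as a trait of the family. Leaving out line 2 brought the count for line 1 to 14 (26.8% of genes), leaving out line 3 to 16 (32.6%) and leaving out line 4 to 14 (29.6%). By range, 16 tested members, Usp44 included, lay above all other libraries in line 1 (25.6% of genes did) and 11 below (23.5%).

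**Figure D4:**
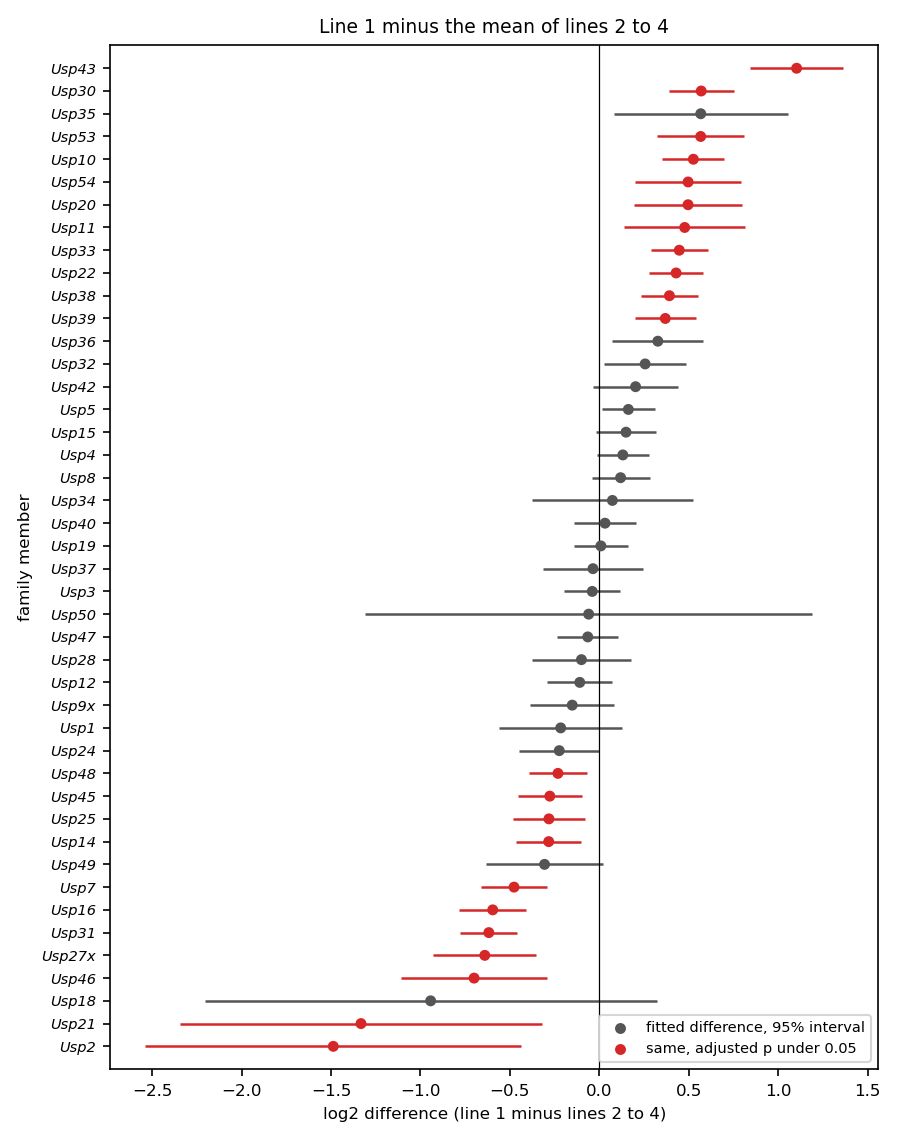
Log2 difference of line 1 from the mean of lines 2 to 4 for the 44 members tested other than Usp44, with 95% intervals, in red where the edgeR adjusted p was under 0.05. Usp43 lies furthest to the right at 1.10, and Usp2 and Usp21 furthest to the left.

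Among the members with roles in chromatin and transcription, 1 of 9 tested was higher in line 1 and 4 were lower, Usp44 left aside, against 21.6% and 17.5% of all genes. The 4 lower include Usp21, the introduced gene. The groups by role are small, and their counts are read only against these 2 shares. Usp22 rose by 0.43 (SE 0.06, edgeR adjusted p = 0.00316), from 156 to 184 CPM in lines 2 to 4 to 220 and 248 CPM in line 1. Its paralog Usp27x fell by 0.64 (SE 0.12, edgeR adjusted p = 0.00800), and the third paralog, Usp51, had 0 reads in line 1 and 27 in the other lines together. Usp22 and its paralogs thus stood on opposite sides in line 1. Of their shared partners, Eny2 was also higher, at 47.0 and 49.98 CPM in line 1 and 28.4 to 32.0 CPM elsewhere (log2 0.69, SE 0.07, edgeR adjusted p = 0.000927). Atxn7l3 ranged from 62.2 to 64.4 CPM in line 1 and from 61.4 to 67.2 CPM elsewhere (edgeR adjusted p = 0.693). Usp7 fell by 0.48 (SE 0.08, edgeR adjusted p = 0.00447), with 175 and 210 CPM in line 1 below the 261 to 274 CPM of the other 6 libraries. Usp16 fell by 0.60 (SE 0.08, edgeR adjusted p = 0.00215), with both line 1 values under all others. Usp21 was also called lower in line 1 (log2 -1.33, SE 0.42, edgeR adjusted p = 0.0468), but its line 1 values of 147 and 1658 CPM overlapped the other lines, and the call was lost without line 2 (adjusted p = 0.126), line 3 (0.0560) or line 4 (0.0777) and with DESeq2 (0.189). The value itself turned on the line 1 libraries, at -0.53 without the WT-USP21 one and -2.42 without the ED-USP21 one.

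In the endosome, membrane and cytoskeleton group, 5 of 11 members were higher in line 1 (Usp10, Usp20, Usp33, Usp53 and Usp54) and 2 lower (Usp31 and Usp46), again beside 21.6% and 17.5% of genes. Usp33 and Usp20, related enzymes that act in receptor recycling, rose by 0.45 (SE 0.07) and 0.50 (SE 0.12). Usp33 stood at 179 and 175 CPM in line 1 against 122 to 135 CPM elsewhere. Usp20 stood at 34.9 CPM with WT-USP21 but only 24.1 CPM with ED-USP21 in line 1, against 19.5 to 22.1 CPM elsewhere, and without the WT-USP21 library of line 1 the difference was 0.25 (edgeR adjusted p = 0.0767). The Usp20 call was also lost without line 2 (0.0564), line 3 (0.0640) or line 4 (0.0582). Usp54 was higher by 0.50 (SE 0.12, edgeR adjusted p = 0.0218), a call lost without line 2 (0.0918), without line 4 (0.0743) and without the ED-USP21 library of line 1, where the difference was 0.26 (0.114). Usp10 stood at 142 and 136 CPM against 90.0 to 104 CPM (log2 0.53, SE 0.07, edgeR adjusted p = 0.00266). Usp53, a protein of tight junctions, stood at 109 and 86.9 CPM against 59.0 to 74.3 CPM (log2 0.57, SE 0.10, edgeR adjusted p = 0.00663). On the lower side, Usp31 (ENSMUSG00000063317) was at 60.0 CPM with each construct in line 1 and at 87.2 to 95.1 CPM elsewhere (log2 -0.62, SE 0.07, edgeR adjusted p = 0.00110). Its line 1 libraries were nearly equal and well clear of the other 6.

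Of the 8 members in DNA repair and replication, 2 were higher and 2 lower (21.6% and 17.5% of genes). Usp43, placed in this group although its role is less settled, had the largest rise among members of at least 1 CPM, of 1.10 (SE 0.11, edgeR adjusted p = 0.000798). Its line 1 levels of 39.8 and 38.5 CPM lay above the 14.0 to 24.5 CPM of the other lines. Exons of Usp43 overlap the antisense transcript 9130017K11Rik. Usp11, which deubiquitinates proteins of homologous recombination, rose by 0.48 (SE 0.14, edgeR adjusted p = 0.0375), from 7.18 to 9.18 CPM in lines 2 to 4 to 9.97 and 13.2 CPM in line 1. Usp45 and Usp48, which act on repair of DNA crosslinks and on histone H2A, fell by 0.28 and 0.23. Usp11, Usp45 and Usp48 lost their calls when any other line was left out, with edgeR adjusted p between 0.0575 and 0.0905. Without the ED-USP21 library of line 1 the Usp11 difference was 0.29 (0.198), and without the WT-USP21 library that of Usp45 was -0.17 (0.166).

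The remaining calls for line 1 were spread over several roles. Usp30, which sits on the mitochondrial outer membrane and opposes mitophagy, stood at 45.9 and 43.5 CPM in line 1 against 26.8 to 33.9 CPM elsewhere (log2 0.57, SE 0.08, edgeR adjusted p = 0.00237), and its exons overlap Alkbh2 and Svop on the opposite strand. Usp38, a regulator of innate immune signalling, stood at 42.0 and 39.8 CPM against 29.3 to 33.5 CPM (log2 0.39, SE 0.07, edgeR adjusted p = 0.00573). Usp39, a spliceosome protein that lacks the catalytic residues, stood at 74.6 and 80.4 CPM against 54.2 to 66.0 CPM (log2 0.37, SE 0.07, edgeR adjusted p = 0.00895). All 3 had line 1 above all other libraries. Among the 5 enzymes of the proteasome and of protein quality control, 0 were called higher in line 1 and 1 lower (21.6% and 17.5% of all genes). The lower one, Usp14, fell by 0.28 (SE 0.07, edgeR adjusted p = 0.0269), and its call was lost in each of the 3 fits without another line. Without the WT-USP21 library of line 1 the Usp14 difference was -0.16. Usp25, an enzyme of immune signalling and of tankyrase turnover, fell by 0.28 (SE 0.08, edgeR adjusted p = 0.0380), a call also lost without any other line and without the ED-USP21 library of line 1, where the difference was -0.17 (0.191).

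Promoter sequence is shown for 3 members that rose in line 1 and that share a short motif close to the gene start. RefSeq promoter windows, the 250 bases before the start on GRCm38.p6, were used for the 35 members with exactly 1 entry. The other 12 had no entry or more than 1. The motif CCGGAAG, the core recognised by ETS-family factors, was searched on both strands, and was chosen after the line 1 values were seen. It was present in 7 of the 35 members and in 6.91% of all 32851 promoters, a set not limited to genes with 1 entry. It was found in 3 of the 6 matched members that rose in line 1 and in 1 of the 10 that fell. Below, each window is written 5′ to 3′ on the gene's strand, with the motif, or CTTCCGG where it reads on the other strand, in capitals.
Usp11 (GRCm38.p6, chrX:20703659-20703908, plus strand): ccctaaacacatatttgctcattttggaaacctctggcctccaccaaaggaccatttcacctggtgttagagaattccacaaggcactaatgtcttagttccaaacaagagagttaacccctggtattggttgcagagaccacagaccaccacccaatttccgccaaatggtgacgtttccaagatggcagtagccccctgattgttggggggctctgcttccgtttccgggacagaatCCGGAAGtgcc
Usp30 (GRCm38.p6, chr5:114100083-114100332, plus strand): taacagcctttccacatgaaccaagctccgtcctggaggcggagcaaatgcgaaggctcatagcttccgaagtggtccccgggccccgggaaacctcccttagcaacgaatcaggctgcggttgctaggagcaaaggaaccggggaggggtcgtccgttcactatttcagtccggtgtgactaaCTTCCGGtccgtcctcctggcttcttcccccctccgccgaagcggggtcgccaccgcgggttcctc
Usp38 (GRCm38.p6, chr8:81014907-81015156, minus strand): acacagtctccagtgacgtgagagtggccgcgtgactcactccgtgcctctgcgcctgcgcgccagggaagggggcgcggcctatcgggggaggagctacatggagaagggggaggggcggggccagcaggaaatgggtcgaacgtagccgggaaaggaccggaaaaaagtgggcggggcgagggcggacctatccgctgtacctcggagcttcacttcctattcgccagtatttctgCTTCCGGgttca
The motif begins 11 bases before the gene start in Usp11, 66 in Usp30 and 12 in Usp38. A short stretch just after the start used here was found in 1 of 4 annotated transcripts of Usp11, 1 of 7 of Usp30 and 2 of 2 of Usp38. The other 3 short motifs searched, none of which contains another, were looked for in the same windows. The E-box CACGTG was present in 3 members (6.02% of all promoters), in 0 of the 6 that rose and 2 of the 10 that fell. The CCAAT box, searched as CCAAT, was present in 6 (33.8%), in 1 of 6 and 1 of 10. The GC box core GGGCGG was present in 24 members, against 32.7% of all promoters. It was found in 2 of the 6 that rose and 7 of the 10 that fell. These splits rest on few members and were not tested. Usp11, 1 of the 6, lost its call for line 1 when any other line was left out. Among the 7 that fell and held the GC box core is Usp21, the introduced gene. Of the same 7, Usp2, Usp21, Usp45 and Usp46 lost their calls for line 1 in at least 1 fit without another line. A match describes letters in these windows and no factor was measured at them.

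No single other line stood apart in the same way. For line 2, line 3 and line 4, each against the mean of the others, edgeR called 0 of 45 members, against 1.95%, 2.11% and 1.49% of genes, with 8, 11 and 9 members at an unadjusted p under 0.05, beside 19.5%, 19.6% and 18.7% of genes. DESeq2 called 1 (Usp31) for line 2 against 10.4% of genes, 4 (Usp31, Usp36, Usp39 and Usp43) for line 3 against 10.8%, and 5 (Usp16, Usp22, Usp30, Usp38 and Usp43) for line 4 against 8.96%. By range, 2, 2 and 0 tested members lay above all other libraries in lines 2, 3 and 4 (3.44%, 5.86% and 2.85% of genes), and 1, 5 and 2 below (2.74%, 6.08% and 2.14%). Line 1 carries the same strain label as line 2, and line 2 is among the lines it was compared with.

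Whether the construct difference itself differed in line 1 was tested as an interaction in edgeR. Of 44 members, 3 passed (6.82%), beside 6.27% of all genes, with 1 member higher (3.19% of genes) and 2 lower (3.08%). At an unadjusted p under 0.05 there were 10 members, against 21.8% of genes. The members that passed were Usp21, with a further -1.87 (SE 0.13, adjusted p = 0.0106) in line 1, Usp1 with -0.62 (SE 0.11, adjusted p = 0.0330) and Usp46 with 0.74 (SE 0.12, adjusted p = 0.0245). USP1 and USP46 are both activated by the partner protein WDR48. Usp1 (ENSMUSG00000028560), which deubiquitinates PCNA and FANCD2, stood at 68.7 CPM with WT-USP21 and 109 CPM with ED-USP21 in line 1. In lines 2 to 4 it stood at 94.5, 101 and 104 CPM with WT-USP21 and at 103, 101 and 105 CPM with ED-USP21. The single low value was the WT-USP21 library of line 1. The 12 DNA replication and mitosis genes, a list added after these values were seen, were low in that library as well, and 11 of 12 were called lower in the same interaction and 0 higher. The part of this shift in the Usp1 result was not tested.

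Usp46 (ENSMUSG00000054814), an enzyme known from synaptic glutamate receptors, went the other way. It stood at 80.0 CPM with WT-USP21 and 57.5 CPM with ED-USP21 in line 1, whereas lines 2 to 4 had 95.8, 112 and 98.0 CPM with WT-USP21 and 120, 125 and 121 CPM with ED-USP21. Both line 1 values lay below all others (line 1 against the rest, log2 -0.70, SE 0.17, edgeR adjusted p = 0.0199), and the direction between constructs was opposite in line 1. Without line 3 that call for line 1 was lost (edgeR adjusted p = 0.0605), and the difference was -1.07 without the WT-USP21 library of line 1 and -0.35 without the ED-USP21 one. Exons of Usp46 overlap the antisense genes Usp46os1 and Usp46os2. The partner Wdr48 stood at 68.5 and 81.7 CPM in line 1 and at 79.5 to 84.5 CPM elsewhere (interaction log2 -0.27, edgeR adjusted p = 0.252). With line 2 left out, 0 members were called in the interaction (0% of genes), with line 3 left out 6 (13.1% of genes; Usp20, Usp36 and Usp53 in addition) and with line 4 left out 1, Usp21 (4.32% of genes). Without line 2 the edgeR adjusted p was 0.0643 for Usp21, 0.0914 for Usp1 and 0.0955 for Usp46. Each line has 1 library per construct, so line 1 has no replicate of its own in this test.

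**Figure D5:**
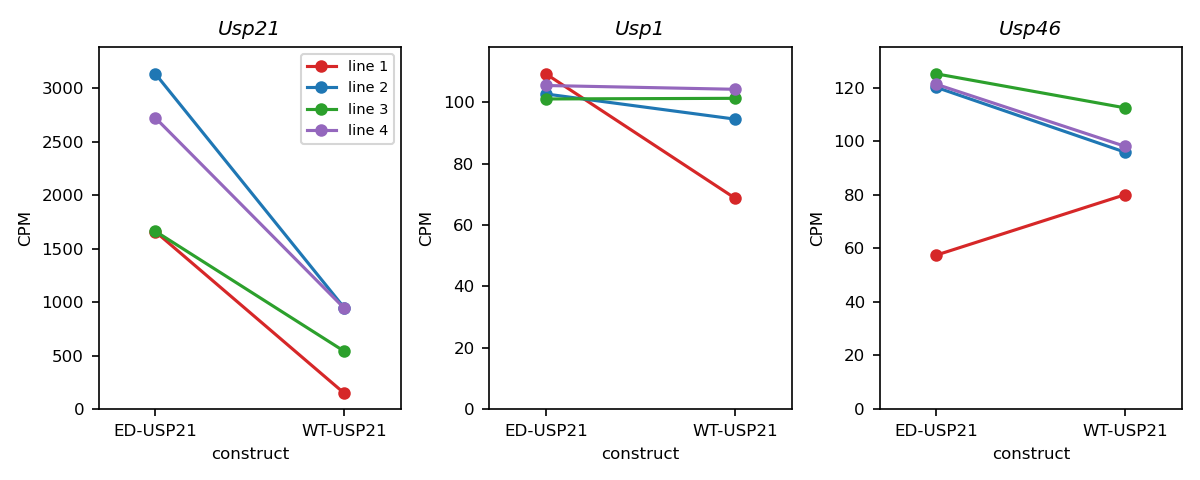
Levels in CPM of Usp21, Usp1 and Usp46 with ED-USP21 and WT-USP21, with 1 point per library and the points of a cell line joined. Line 1, in red, has the lowest WT-USP21 value of Usp21, at 147 CPM, the largest fall in Usp1, from 109 to 68.7 CPM, and the only rise in Usp46, from 57.5 to 80.0 CPM.

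The low members can be given only as reads. Usp44, a regulator of the mitotic checkpoint and of histone H2B, had 20 and 48 reads in line 1 and 8 in the other 6 libraries together, a ratio of 22.9 after scaling (95% interval 11 to 55.1, counting error only). It passed the low-count filter only through line 1, so its edgeR call there is not independent of that filter, and its level stayed under 0.5 CPM even there. Usp51 was at least 3.35-fold lower in line 1, with 0 reads set to a floor of 3 over its 2 libraries, and with the error of the other lines' 27 reads included the 95% upper limit is 0.394 of their level. Usp2, linked to the circadian clock, had 37 reads in line 1 and 299 elsewhere, 0.333 of the level (0.230 to 0.470, counting error only). Its call (edgeR adjusted p = 0.0372) was lost without line 2 (0.118), without line 4 (0.0605) and without either line 1 library (0.160 and 0.0768). Usp29 had 13 reads in all, of which 11 were in line 1 with ED-USP21.

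Usp18, the protease that removes the ubiquitin-like protein ISG15, had 10, 31, 6 and 17 reads with WT-USP21 and 15, 40, 26 and 20 with ED-USP21 in lines 1 to 4. After scaling, ED-USP21 libraries held 1.69 times the WT-USP21 level (1.23 to 2.35, counting error only), and the edgeR test did not pass (log2 -0.89, SE 0.41, adjusted p = 0.645). Isg15 itself was also lower with WT-USP21 in 4 of 4 lines, at 0.391, 0.099, 0.084 and 0.116 CPM against 0.645, 0.243, 0.312 and 0.309 CPM (log2 -1.28, edgeR adjusted p = 0.370). None of the 4 tested ISG15 pathway genes passed within lines, where their median log2 difference was -0.154 (-0.0044 over all genes). Of the same 4, 2 were higher and 1 lower in line 1 (21.6% and 17.5% of genes).

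Deubiquitinases of the other families, together with relatives in the JAMM family, were examined in the same fits. Of 41 such genes with a row in the data, 38 were tested and 0 were called within lines. Line 1 against the rest called 52.6% of the 38, 15 higher and 5 lower, beside 39.1% of all genes (21.6% higher, 17.5% lower), and the F test over lines called 14, beside 23.4% of genes. In the interaction 2 were called, beside 6.27% of genes, Uchl5, a proteasome-bound enzyme, lower and Fam63a, which prefers long ubiquitin chains, higher, both named after their values were seen. Among 9 tested USP partner proteins, 0 were called within lines, and 3 were higher and 0 lower in line 1, where 21.6% and 17.5% of all genes were. Among 6 ubiquitin and E1 enzyme genes, 0 were called within lines, and 1 was lower and 0 higher in line 1. The 3 proteins with a USP fold but another name gave 0 calls within lines and 1 higher in line 1.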

How the data were processed

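Per the labels, total RNA of 8 cultures was sequenced by standard Illumina protocols. The authors deposited raw read counts for each gene, as whole numbers without normalisation. The submitters' processing notes name mm9 as the mouse build and, as tools, HTSeq, STAR, TopHat, Cufflinks and CASAVA, with neither role nor version. Reads outside genes made up 11.4% to 20.6% of a library and were left out, as were the other 2 of 3 summary rows. Counts were tested with edgeR 4.0.16 in R 4.3.3 (quasi-likelihood test, TMM, filterByExpr, calls at an adjusted p under 0.05 over all genes tested). The SE is the absolute log2 value over the square root of F. Log2 CPM used a prior count of 2. Transcript lengths and exon overlaps came from a GENCODE annotation on GRCm38, a later build than mm9, and promoters from RefSeq.

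Line numbers pair libraries because both come from 1 cell line. Across genes, the deviation of a WT-USP21 library from its group mean correlated with that of its ED-USP21 partner at 0.770, 0.503, 0.468 and 0.347 in lines 1 to 4. Nothing in the labels says that the lines were cultured more than once, so p-values measure the spread between these samples. For contrasts between lines, that spread is what remains between the 2 libraries of a line after the construct is accounted for. It does not hold the variation among lines. For the interaction it comes from lines 2 to 4 alone. Alternatives used DESeq2 1.42.0, limma 3.58.1, other scaling and filters, and left out each line. The test scripts were tested on simulated data. Where genes have few reads, intervals and floors cover counting error only. Of the 47 members, Usp29 and Usp51 passed no low-count filter, and Usp44 passed it only between lines. Exons of 20 members overlap another gene, 10 of them a protein-coding one. Among them, with no remark above, are Usp2, Usp10, Usp14, Usp18, Usp29, Usp31, Usp33, Usp34, Usp38, Usp45, Usp49 and Usp54. Usp10 and Usp49 overlap the protein-coding genes Gm20388 and Gm20517 on the same strand. Members, gene lists and tests were chosen with earlier results of these data known. The text names any member, and from each other list those with the smallest p within lines unless it says otherwise. Eny2, Atxn7l3 and Wdr48 were named for their partners. A further genotype element that all 8 libraries share is not reported here.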

Additional observations from a re-analysis of the deposited data

Results flagged for a closer look

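Within each group of 4 libraries, a member was singled out when its highest or lowest library lay far from the other 3. Of 88 such groups, 17 met this (19.3%), where chance gives about 1 in 20, or 4.4, and where 14.6% of the groups over all genes tested did. Of the 17, 14 (82.4%) were line 1 libraries, beside 84.5% over all genes. With WT-USP21, line 1 was high for Usp10 (142 CPM), Usp20 (34.9 CPM), Usp22 (248 CPM), Usp30 (45.9 CPM) and Usp33 (179 CPM). It was low for Usp7 (175 CPM), Usp27x (11.6 CPM) and Usp31 (60 CPM). With ED-USP21, line 1 was high for Usp4 (108 CPM), Usp10 (136 CPM) and Usp43 (38.5 CPM). It was low for Usp7 (210 CPM), Usp24 (150 CPM) and Usp46 (57.5 CPM).

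The 3 outside line 1 were Usp9x in line 3 with WT-USP21 (582 CPM, the others 420 to 439 CPM), Usp36 in line 3 with ED-USP21 (46.6 CPM, the others 58.4 to 59.4 CPM) and Usp19 in line 2 with ED-USP21 (142 CPM, the others 136 to 137 CPM). The Usp19 gap is small in size and stands out because its other 3 libraries are close together.

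The construct difference differed between line 1 and lines 2 to 4 in the edgeR interaction test for Usp21 (-1.87 on the log2 scale), Usp1 (-0.623) and Usp46 (0.74).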

How the results depend on the processing

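Within lines, the count of called members was 0 with the replicate block and 0 without it, and also 0 with DESeq2, RLE scaling, limma-trend, a robust spread estimate or a minimum mean of 5 CPM. It was 1 (Usp21, adjusted p = 0.0399) with no low-count filter, and 0 to 2 with a line left out. The F test over lines gave 22 with DESeq2 (38.2% of all genes) and 12 to 14 with the other tools, scalings and filters (16.4% to 30.1%). With a line left out it gave 1 to 10 (0.442% to 20% of genes). The line 1 count was 25 with DESeq2 (44.8% of genes), 24 with RLE scaling (39.3%), 14 to 16 with another line left out, 20 without its WT-USP21 library (35.4%) and 21 without its ED-USP21 library (36.8%). Line 2, line 3 and line 4 gave 1, 4 and 5 with DESeq2, and line 3 gave 0 to 1 with a line left out (Usp21, without line 1). The interaction gave 3 under each other tool, scaling and filter tried, and 0 to 6 with a line left out, a choice added after the data were seen, as were the single-library and RLE fits for line 1. For named members, 52 of 55 alternative values within lines kept direction and side of the threshold. So did 124 of 161 for line 1 and 16 of 21 for the interaction, and 0 reversed. Members named for line 1 and the interaction were those called in the main fit, so they could only keep or lose a call. Those named within lines were not called there. All settings reuse the same libraries.

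The Usp21 difference of -2.096 had p = 0.125 with the replicate block (exact sign-flip test), and ran from -2.284 to -1.629 with a line left out, where the exact permutation p of 0.1 is the smallest possible. The sum of the other members changed sign with library totals (0.008716) and without line 2, and ran from -0.04758 to 0.00495 with a line left out. Fits with a line left out have fewer samples; the cause of the other shifts was not tested. Depth limits the 6 members under 1 CPM.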
